A study of Mus musculus with 6 samples.

Results

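Very high Apoe cells are spinal cord cells with values for myeloid genes and a value of at least 60 for Apoe, the gene of the lipid carrier apolipoprotein E. They were selected on measured values: a summed value of at least 8 for C1qa, Ctss and Tyrobp (myeloid genes), below 3 for P2ry12, Tmem119, Siglech and Cx3cr1 (genes of homeostatic microglia), at least 60 for Apoe, and fewer than 2 of the monocyte genes Arg1, F10, AA467197, Clec4n and Plac8 above 0. Of 13614 cells in the table, 4741 met these limits (34.8%, exact binomial 95% interval 34.0 to 35.6%, which covers counting error only). The limits took the cells from 13614 to 11481 with the myeloid sum, to 9119 with the microglia sum, to 8270 with the monocyte limit and to 4741 with Apoe. Cells that met the same limits but had an Apoe value of 10 to 59 served as comparison (2702 cells).

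The cells came from 6 scRNA-seq libraries of mouse spinal cord. Of these, 1 was from non-immunized WT mice, 1 from non-immunized Nd6 mice, 2 from WT mice with EAE and 2 from Nd6 mice with EAE. In Nd6 mice the mitochondrial gene of complex I subunit ND6 holds a point mutation, which is not limited to a cell type, and EAE is a model of neuroinflammation induced by immunization with a MOG peptide, with the tissue taken 30 days later. Mice with EAE were female, and healthy controls were of both sexes. All mice were perfused with the transcription inhibitors actinomycin D and triptolide, and debris, which the labels call myelin, was removed before the cells were loaded. A cell's name carries its barcode and 1 of 6 numbers, and the cells that share a number are called a set here (A to F, from the largest to the smallest). Neither the table nor the labels show which library a set is. The paper's cell totals per genotype are met only with sets A, C and E as WT and sets B, D and F as Nd6. These totals do not show which sets came from mice with EAE. All cells were treated as 1 sample. WT and Nd6 or control and EAE mice were not compared, no test was run and no p-value was computed.

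Apolipoprotein E packs cholesterol and phospholipids into particles that cells take up through receptors of the LDL receptor family, and TREM2 on microglia binds it. In the healthy central nervous system it is made mainly by astrocytes, whereas microglia turn it on when they leave the homeostatic state, together with genes of lipid handling and lysosomes such as Spp1, Lpl, Cst7 and Gpnmb; such cells are called disease-associated microglia (DAM). Macrophages that enter the tissue from blood can also express Apoe.

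The very high Apoe cells were spread unevenly over the sets. Set A held 3415 of them (73.7% of its 4633 cells), set C 1013 (60.9% of 1664), set F 277 (34.2% of 809), set B 35 (0.876% of 3995), set D 1 of 1309 and set E 0 of 1204, which allows a share of up to 0.249%. Sets A, C and F together thus held 99.2% of these cells, whereas 72.0% of the comparison cells (1946) came from set B. Sets A, C and F held 382, 171 and 185 comparison cells. Comparisons below were therefore made within sets A, C and F, each of which held at least 50 cells of both kinds. Of the barcodes, 18 occurred in more than 1 set, and 18 very high Apoe cells carried one of these. By the paper's totals per genotype, the WT sets thus held 73.7% (A), 60.9% (C) and 0 cells (E). The Nd6 sets held 0.876% (B), 34.2% (F) and 1 cell (D). The disease state and library of a set are not shown. Genotypes were therefore not compared at a like disease state, and disease state cannot be told apart from differences between libraries.

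Across all 4741 cells the Apoe value had a median of 105 (quartiles 92 and 115, range 60 to 526). By set, the median was 108 in set A (quartiles 97 and 117), 100 in set C (89 and 110), 73 in set F (66 and 80) and 89 in the 35 cells of set B (67.5 and 120). Set F thus lay lower than sets A and C. Apoe alone made up a median of 9.89% of all values of a cell in set A, 12.2% in set C and 6.68% in set F. In sets A and C the limit of 60 fell in the lower tail of a single broad peak around 95 to 115 with a low shoulder at 30 to 60, and in set F it fell near the top of a peak at 60 to 75. The 124 cells just inside the limit (Apoe 60 to 64) and the 128 just outside (55 to 59) had close means for Spp1 (6.47 and 6.27), Trem2 (1.80 and 1.62), Cd74 (3.57 and 3.55) and Apoc1 (0.218 and 0.180), and medians of 435 and 426.5 genes above 0. Lpl (0.161 and 0.258) and Actb (2.91 and 3.46) had lower means just inside the limit.

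**Figure D1:**
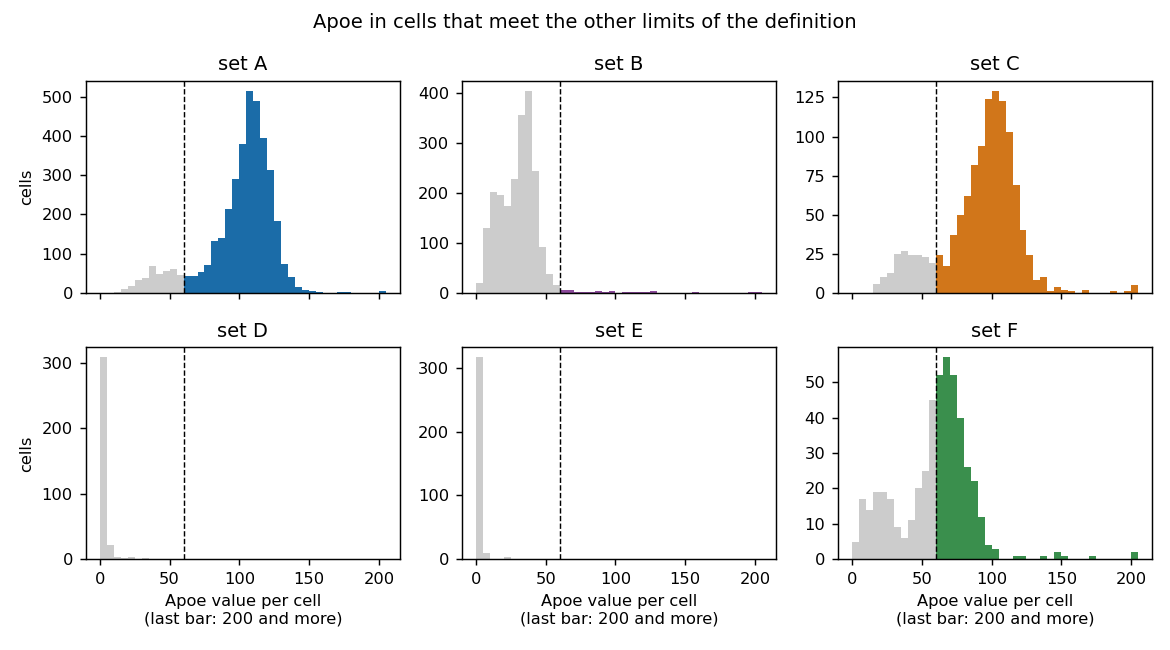
Number of cells (vertical axis) by Apoe value per cell in bins of 5 (horizontal axis, dimensionless deposited values, last bar 200 and more) in each set, for cells that meet the other limits. Coloured bars are very high Apoe cells, grey bars lie below the dashed limit of 60; sets A and C peak around 95 to 115, set F near 70, set B below 60, and sets D and E near 0.

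In total 5390 cells had an Apoe value of at least 60, of which 649 were left out by another limit. Of these, 421 had a microglia sum of 3 or more, 197 a myeloid sum below 8, and 31 had 2 or more monocyte genes above 0. Apoe from RNA of other cells was read in endothelial-marked cells (Cldn5, Flt1 and Pecam1 summing to at least 3, myeloid sum below 3), which should lack Apoe of myeloid origin. Their limit on the myeloid sum leaves out barcodes with much myeloid RNA, so this reading can be too low. Their Apoe mean was 12.7 ± 5.29 (SD over 21 cells) in set A, 18.0 ± 8.14 (13 cells) in set C and 6.43 ± 5.06 (21 cells) in set F, with a highest value of 34 in any set. In sets B, D and E it was 7.56 ± 3.22 (18 cells), 1.25 ± 1.86 (20 cells) and 0.778 ± 1.21 (54 cells). The limit of 60 lay above every endothelial-marked cell, which the low myeloid sum of these cells favours. Apoe in such cells was lowest in sets D and E, which held 1 and 0 very high Apoe cells.

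The label was checked against its markers Apoe, Apoc1, Spp1 and Lpl. Spp1, which encodes osteopontin, was above 0 in 98.6% of the very high Apoe cells, Apoc1, the gene of apolipoprotein C-I, in 42.9%, and Lpl, the gene of lipoprotein lipase, in 29.1%. All 4 genes were above 0 in 608 cells (12.8%), or 15.3% of set A, 7.21% of set C, 3.97% of set F and 2 of the 35 cells of set B. Myeloid genes that the selection did not use were present throughout: over sets A, C and F, C1qb was above 0 in 99.5%, C1qc in 94.0%, Fcer1g in 84.6% and Trem2 in 82.8% of cells. Of the 10 border macrophage markers in the table, Ms4a7 was above 0 in 12.5% and Stab1 in 8.42%, and the others, Mrc1 (0.531%) and Pf4 (0.744%) among them, in under 3% each. Of 15 genes of infiltrating monocytes, Ccr2 (2.38%) and Ly6c2 (1.96%), which mark monocytes fresh from blood, were low, whereas Lyz2 was above 0 in 99.6%, Vim in 30.3%, Ifitm3 in 28.3% and Fn1 in 24.8%. Apoe itself was fixed by the selection and checks nothing. Of the 3 other markers Spp1 was present in nearly all cells, but also in 88.6% of the comparison cells of sets A, C and F, and Apoc1 and Lpl were above 0 in a minority.

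After Apoe, the most abundant gene with a protein product was Fth1, the ferritin heavy chain, with means of 35.2, 32.6 and 38.2 in sets A, C and F. By the mean of the 3 sets Cst3 (cystatin C) came next at 11.1, 10.2 and 22.1, then Mbp, the gene of myelin basic protein, at 12.5, 11.5 and 14.4, and Tmsb4x, a thymosin that binds actin, at 13.3, 11.9 and 11.7. In sets A and C, Tmsb4x and Mbp lay above Cst3. Mbp is made by oligodendrocytes and not by myeloid cells, yet it was above 0 in 98.7% of the very high Apoe cells. Ctsd, the gene of the lysosomal protease cathepsin D, had means of 11.7, 9.23 and 10.1, Spp1 of 10.5, 5.94 and 5.96, and Lyz2 (lysozyme) of 7.99, 6.47 and 7.87. Hbb-bs, a haemoglobin chain of red blood cells, was above 0 in 37.5%. RNA of myeloid cells and of oligodendrocytes was thus present in nearly all of these barcodes, and haemoglobin RNA in a minority.

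The spread of values from cell to cell differed between the sets. Variance over mean between cells, which is 1 for random draws from a single RNA pool, had a median of 1.02 over the 123 genes with a mean of at least 1 in set A (quartiles over genes 0.976 and 1.11), 1.46 over 108 genes in set C (1.38 and 1.63) and 1.17 over 114 genes in set F (1.05 and 1.49). In the 35 cells of set B it was 1.37. In the comparison cells of sets A, C and F it was 1.88, 1.79 and 1.73, and in microglia-marked cells with Apoe of at least 60, whose sum of homeostatic genes is 3 or more, it was 1.01, 1.57 and 1.15. The low values of sets A and F were thus shared with the microglia-marked cells of the same sets. Only 4 of the 123 genes of set A exceeded 2, against 46 of 126 genes in the comparison cells of that set. Trem2 had a ratio of 0.992, Hbb-bs 1.00, Mbp 1.84, Ctsd 1.47, Apoe 2.64 and Spp1 4.01 in set A. The deposited values are not raw UMI counts, and the step that made their totals alike can itself narrow the spread. The ratio was 1.46 in the 714 microglia-marked cells of set D with Apoe below 10 and 1.18 in the 824 monocyte-like cells of set B. Among the cells of set A with 300 to 500 genes it was 1.56, so the value of 1.02 did not hold at low gene numbers. Whether the barcodes of very high Apoe cells hold whole cells or a shared pool of free RNA was not tested.

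**Figure D2:**
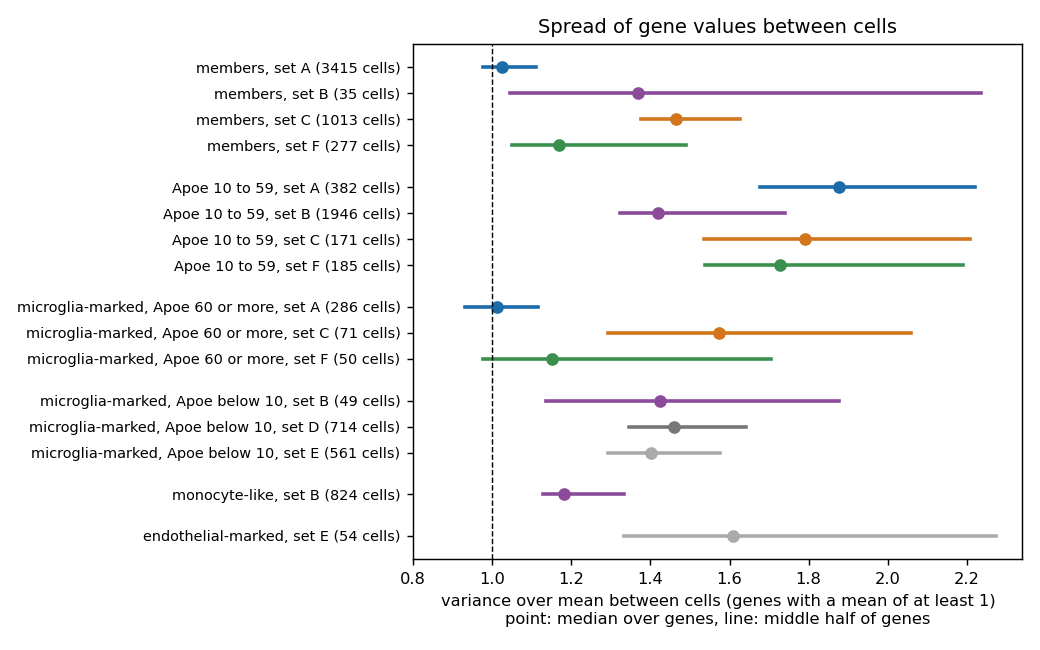
Variance over mean of gene values between cells (horizontal axis, dimensionless) for groups of cells in a set (vertical axis, members being very high Apoe cells); points are medians over genes with a mean of at least 1, lines the quartiles over genes, and the dashed line marks 1. Very high Apoe cells of set A lie at 1.02 and those of set F at 1.17, below the comparison cells of the same sets at 1.88 and 1.73.

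Within the very high Apoe cells genes hardly varied together. Over pairs of the same genes, scaled to the cell's total without Apoe, the median absolute Spearman rho was 0.0303 in set A, 0.0315 in set C and 0.0652 in set F, given as a description over 3415, 1013 and 277 cells that share their library and total. Apoe itself followed the number of genes with a value (rho of 0.50 in set A, 0.28 in set C and 0.34 in set F). Its rho with Spp1 was 0.14, 0.07 and 0.02 in sets A, C and F unscaled, and 0.18, 0.13 and 0.10 with Apoe and Spp1 both scaled. Scaling divides both values of a pair by the same total, which can itself shift rho. With Lyz2 it was 0.15, 0.12 and 0.04 unscaled and 0.19, 0.21 and 0.15 scaled, and with Ctsd 0.14, 0.06 and 0.27 unscaled and 0.22, 0.09 and 0.34 scaled. The summed values of MHC class II and DAM genes had a rho of 0.14, 0.05 and −0.05 unscaled and 0.13, 0.09 and 0.07 scaled. In sparse values such weak correlations are no finding.

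Cells with the microglia sum at 3 or more and Apoe of at least 60 differed from the very high Apoe cells mainly in set C. In set A, 286 such cells had an Apoe mean of 107.7 ± 16.6, against 106.6 ± 16.8 in the 3415 very high Apoe cells, and all 122 genes with a mean of at least 1 lay within 1.25-fold. In set F, 86.7% of 113 genes lay within 1.25-fold (50 cells), and in set C 70.1% of 107 genes (71 cells). For the comparison cells these shares were 49.2% in set A, 75.2% in set F and 56.1% in set C. In set A the limit on microglia genes thus separated cells with close mean values.

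A small tail of the very high Apoe cells looked different. Only 38 of the 4741 cells had an Apoe value of 150 or more: 17 in set A, 12 in set C, 4 each in sets B and F and the single cell of set D. In the 17 cells of set A, Spp1 had a mean of 42.8 ± 52.9 (SD over cells; median 12), against 10.5 ± 6.5 (median 10) in all very high Apoe cells of the set, so a few cells carried this mean. Ctsd had a mean of 29.2 and Ctsb, which encodes cathepsin B, of 10.4 in the tail, against 11.7 and 2.87 in the set. Gpnmb, a lysosomal glycoprotein of lipid-laden macrophages, had a mean of 3.94 against 0.940, and Lyz2 of 15.6 against 7.99. The tail of set C had like means for Ctsd (23.2), Ctsb (9.75), Gpnmb (3.25) and Lyz2 (15.8), and a Spp1 mean of 24.3. Both tails lay well above the set means for lysosomal genes.

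Mbp and Hbb-bs, genes of oligodendrocytes and red blood cells, had lower means in the tails of sets A and C. Mbp had a mean of 4.59 in set A and 0.500 in set C, against 12.5 and 11.5 in all very high Apoe cells of these sets. Hbb-bs had means of 0.0588 and 0, against 0.448 and 0.663. Actb, which encodes cytoskeletal actin, had means of 4.94 and 5.92, against 2.31 and 2.50. The border macrophage markers were also higher, with sums of 0.824 and 0.500, against 0.324 and 0.217 in the cells with Apoe of at least 100 but below 150. The summed DAM genes averaged 123 in the tail of set A and 90.8 in that of set C, against 44.1 and 31.4 in the same cells. In the 4 cells of set F, Spp1 was at 0.75, Ctsd at 17.2 and the sum of the border macrophage markers at 0. Since Apoe chose both the cells and the tail, these are descriptions with no test, and cell numbers are small.

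The 35 very high Apoe cells of set B also differed from those of sets A, C and F. Their C1qa mean was 14.4, Ctsd 18.9 and Ctsb 6.83, against at most 6.14, 11.7 and 2.87 in the other sets. Mbp was at 2.14, Hbb-bs at 0.0857 and the mitochondrially encoded genes summed to 13.8, against at least 26.9 elsewhere. Spp1 had a mean of 30.5 with an SD of 54.9, a median of 5 and a value of 0 in 8 of the 35 cells, so a few cells carried this mean too. Apoc1 was above 0 in 11.4% of them, the lowest share of the 4 sets.

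**Figure D3:**
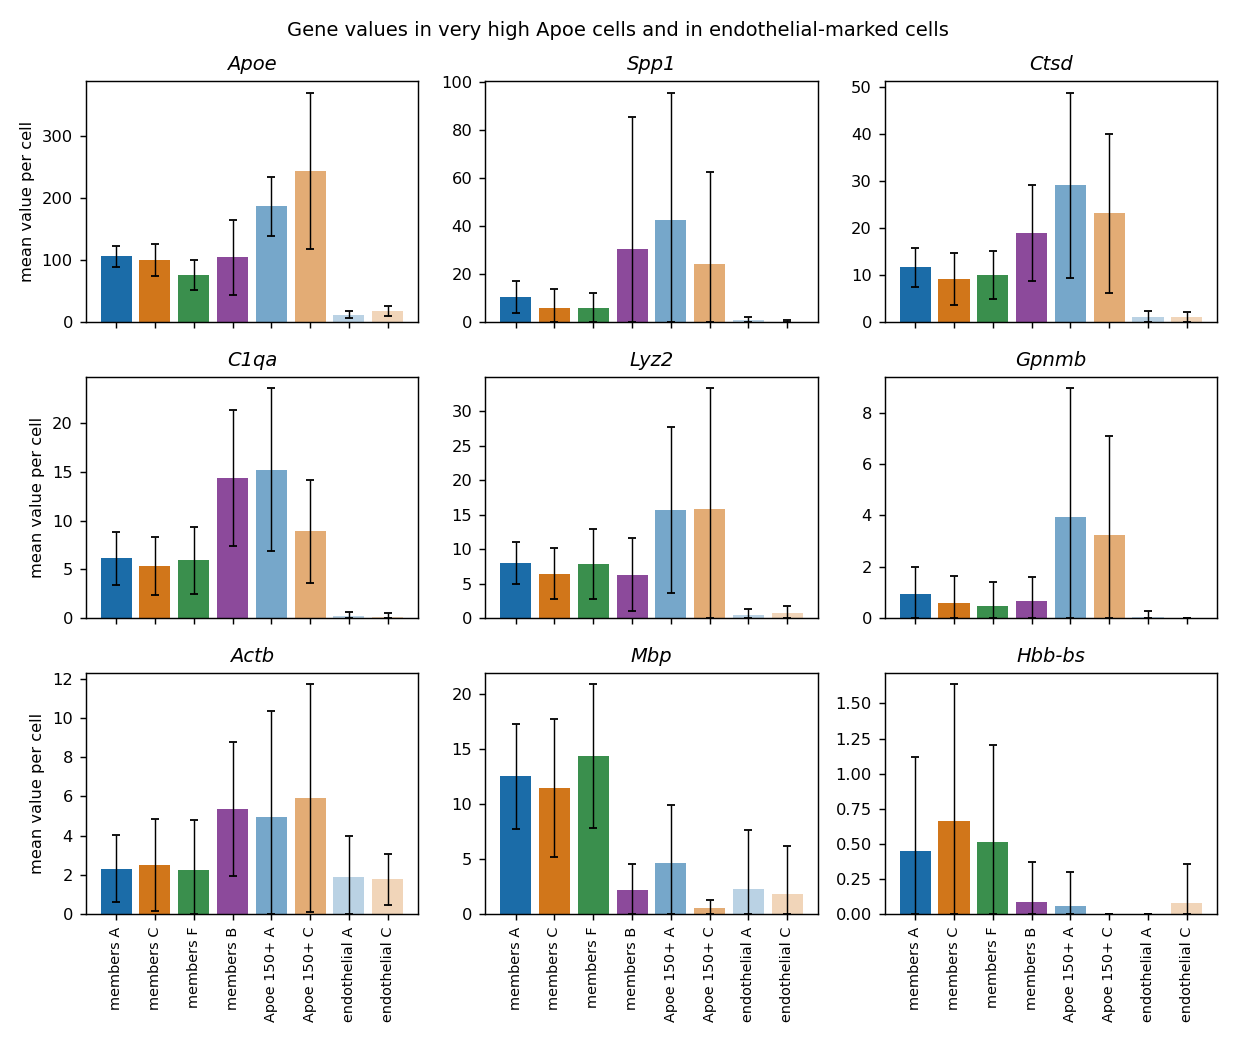
Mean value per cell (vertical axes, each starting at 0, error bars 1 SD over cells and cut off at 0) of 9 genes in very high Apoe cells of sets A, C, F and B, (members), in those of sets A and C with Apoe of 150 or more, and in endothelial-marked cells of sets A and C. Ctsd and Gpnmb are highest in the tail, whereas Mbp and Hbb-bs are highest in the bulk of sets A, C and F.

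Set against the endothelial-marked cells of the same set, genes of the very high Apoe cells were present at a low share of their level. In set A, endothelial-marked cells had 11.9% of the Apoe mean, 9.34% of Ctsd, 8.59% of Spp1, 7.30% of Trem2, 6.94% of C1qb and 6.56% of Lyz2. For Mbp the share was 17.9%, and for Fth1, which endothelial cells express themselves, 33.0%. The shares of Apoe and Ctsd were 17.9% and 12.5% in set C and 8.38% and 4.25% in set F, over 13 and 21 cells. Cd74, the MHC class II invariant chain, stood at 19.7% in set A, 27.3% in set C and 3.37% in set F. The genes of the myeloid sum are held low in endothelial-marked cells by their definition and were left aside. That limit can also lower the shares of Apoe and of the other myeloid genes given here.

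The comparison with Apoe 10 to 59 cells asked which other genes go along with Apoe. A gene was looked at if it was above 0 in at least 10% of either kind of cell, and was called if the median over sets A, C and F of the ratio of means (each + 0.02) was at least 1.5 and the ratio had the same sign in every set. Of 1156 genes, 120 were called higher (10.4%) and 44 lower (3.81%) in the very high Apoe cells. The 10% limit favours the direction of some calls. Of the 120 genes called higher, 95 passed it only through the very high Apoe cells, among them Pcdh9, Arhgap24, Cd300lf, Apoc4, Pltp, Itgax, Ms4a7, S100a6, Cybb, Tapbp and Klf2, and had to be above 0 more often there. These calls are given as descriptions. Among the 744 genes that passed through both kinds of cell, 25 were higher (3.36%) and 37 lower (4.97%), and Hbb-bs, Neat1, Ly6c1, Apoc1, Gpnmb, Lyz2, H2-Aa, H2-Ab1, H2-Eb1, Ifi30, Lamp2, Abca1 and Itgb2 were among the 25. The number of genes with a value differed in sets A and F and hardly in set C: its median was 663 against 389 in set A, 641 against 408 in set F and 406 against 407 in set C. The median log2 ratio over all 1156 genes was 0.29 in set A, 0.25 in set F and −0.29 in set C. With values scaled to the total without Apoe, 78 genes were higher and 81 lower, and with cells of 300 to 500 genes only, 21 and 84 of 725. The split between higher and lower calls therefore depended on the scaling, and the part of gene number in it was not tested.

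Apoc1 and Apoc4, which lie near Apoe on chromosome 7, were called higher, and Apoc4 passed the 10% limit only through the very high Apoe cells. Of the other genes there, Apoc2 was above 0 in 0.0850% and Tomm40, which follows Apoe directly, in 3.61% of the very high Apoe cells, so neither was looked at. In GRCm38 coordinates of RefSeq, Apoc4 lies at chr7:19678084-19681460, Apoc1 at chr7:19689480-19692659 and Apoe at chr7:19696244-19701310. Apoc1 had means of 0.644, 0.536 and 0.188 in the very high Apoe cells of sets A, C and F, against 0.364, 0.363 and 0.0595 in the comparison cells (median ratio 1.73). It was called under each of the 15 alternatives. Apoc4, a minor apolipoprotein, had means of 0.211, 0.109 and 0.0722 against 0.120, 0.0936 and 0.0162 (median ratio 1.65), but it was called under only 5 of the 15. Apod, a lipocalin of glia, had 1.13, 0.916 and 0.523 against 1.60, 0.591 and 0.330 and was not called, since it was lower in set A.

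The other 2 markers did not pass. Spp1 was higher in all 3 sets, at 10.5, 5.94 and 5.96 against 6.32, 4.01 and 4.09, but its median ratio of 1.48 lay just under the limit. Lpl had means of 0.386, 0.294 and 0.329 against 0.259, 0.357 and 0.259, so set C went the other way.

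The highest median ratio of all belonged to Hbb-bs at 3.72, with means of 0.448, 0.663 and 0.513 against 0.0812, 0.164 and 0.227. Hba-a2, the other haemoglobin chain, had a median ratio of 2.57 (0.103, 0.196 and 0.137 against 0.0314, 0.0643 and 0.0378). These genes belong to red blood cells. Neat1, a nuclear long noncoding RNA, had 0.487, 0.303 and 0.357 against 0.136, 0.0936 and 0.178 (median ratio 2.84). Pcdh9, a protocadherin known from neurons and oligodendrocytes, had 0.269, 0.147 and 0.318 against 0.113, 0.0292 and 0.0973 (2.88) and was called under all 15 alternatives. Arhgap24 (3.22), Snhg9 (2.45), Pde4b (2.22), the O-GlcNAc transferase gene Ogt (2.16), Rgl2 (2.11) and Zbtb20 (2.09) completed the genes with the highest ratios, together with Ly6c1 and Cd300lf described below. Of these 12 genes, only Pcdh9 passed the call among cells of 300 to 500 genes.

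Several genes of the cytoskeleton and the glycolysis gene Eno1 were among the 12 lowest called genes. No list of cytoskeleton genes was made, and Tmsb4x, which is more abundant, was not called (median ratio 0.901). Actb had means of 2.31, 2.50 and 2.22 in the very high Apoe cells, against 4.88, 5.42 and 4.12, so it was lower in each set (2.11-fold by the median). Eno1, a glycolytic enolase, had 0.109, 0.0661 and 0.105 against 0.246, 0.275 and 0.270 (2.33-fold lower). Pfn1, which encodes the actin-binding profilin, had 0.477, 0.389 and 0.466 against 0.885, 0.918 and 0.757, and Tmsb10, a thymosin that binds actin monomers, had 0.572, 0.365 and 0.567 against 1.04, 1.07 and 0.730. These 4 genes were called lower under all 15 alternatives. Tuba1b (2.12-fold), Ubb (1.91-fold), Hmgb1 (1.85-fold), Marcks (1.84-fold), Chmp4b (1.82-fold), Serbp1 (1.81-fold) and Cap1 (1.74-fold) were also lower. Of 81 ribosomal protein genes, 13 were lower and 1 higher, against 3.81% lower and 10.4% higher over all genes. In the cells of sets A and C with Apoe of 150 or more, the Actb means of 4.94 and 5.92 lay above those of the comparison cells, with medians of 2 and 5.

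**Figure D4:**
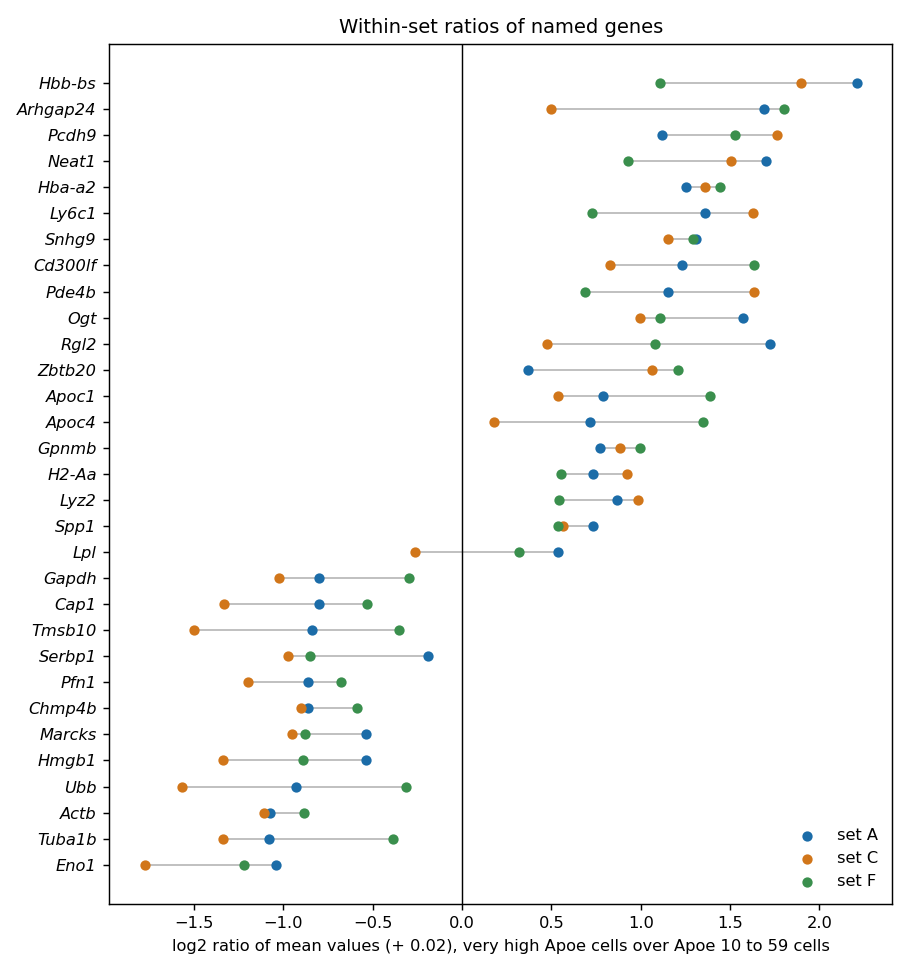
Log2 ratio of mean values (+ 0.02) of very high Apoe cells over Apoe 10 to 59 cells (horizontal axis) for named genes (vertical axis), with 1 point for each of sets A, C and F. The genes from Hbb-bs to Zbtb20 and from Cap1 to Eno1 lie on 1 side of 0 in every set, whereas Lpl lies on both sides.

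Of the apolipoprotein list, 2 of 3 genes looked at were higher, Apoc1 and Apoc4 (median log2 ratio 0.72), beside 10.4% higher over all genes. The calls in the other lists of lipid genes stood near that share, given how few genes could be looked at. In the list of lipoprotein uptake and lipases, 1 of 8 genes looked at was higher and none lower, with a median log2 ratio of 0.36 beside 0.11 over all genes. The gene called was Pltp, which encodes phospholipid transfer protein, with means of 0.203, 0.0997 and 0.307 against 0.134, 0.0409 and 0.146. Trem2, the lipid receptor of microglia, had 1.96, 1.65 and 2.10 against 1.37, 1.61 and 1.75. Among cholesterol genes 2 of 20 could be looked at. Abca1, the transporter that loads cholesterol onto apolipoproteins, was higher (0.252, 0.220 and 0.152 against 0.139, 0.135 and 0.119), and Npc2 was not called. None of 4 genes of fatty acid binding and lipid droplets was called. Fabp5, a fatty acid carrier, had 1.27, 0.857 and 1.13 against 1.53, 1.35 and 0.962.

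Of 20 DAM genes looked at, 2 were called higher and none lower (median log2 ratio 0.27), which is near the 10.4% over all genes. Gpnmb had means of 0.940, 0.599 and 0.484 against 0.542, 0.316 and 0.232 (median ratio 1.84) and was called under all 15 alternatives. Itgax, which encodes the integrin CD11c, had 0.183, 0.0809 and 0.137 against 0.0890, 0.0526 and 0.0649 and was called under 7. Cst7, an inhibitor of cathepsins, had 0.915, 0.558 and 0.484 against 0.500, 0.462 and 0.330 and missed the limit. Of 21 lysosomal genes, 3 were higher (median 0.21), again near the share over all genes, namely Gpnmb, Ifi30, the lysosomal thiol reductase, and Lamp2. Ctsd and Ctsb had median ratios of 1.14 and 1.08 and were higher by less than 1.1-fold in set C.

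Of 6 MHC class II genes looked at, 3 were called higher and none lower, beside 10.4% higher and 3.81% lower over all genes. The list medians were 0.72, 0.59 and 0.53 on the log2 scale in sets A, C and F, beside 0.29, −0.29 and 0.25 over all genes. H2-Aa had means of 1.93, 1.05 and 1.11 against 1.15, 0.544 and 0.751, H2-Ab1 1.56, 0.852 and 0.924 against 0.848, 0.520 and 0.622, and H2-Eb1 1.15, 0.618 and 0.628 against 0.696, 0.398 and 0.459. These encode the chains that present peptides to T cells. Cd74, the invariant chain, had 4.84, 3.38 and 2.82 against 3.19, 2.26 and 2.35 and missed the limit at 1.49. H2-Ab1 was called under 11 alternatives, H2-Aa under 10 and H2-Eb1 under 6. With values scaled to the total without Apoe, H2-Ab1 was still called and the other two were not.

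Lyz2 led the list of infiltrating monocytes with means of 7.99, 6.47 and 7.87 against 4.37, 3.26 and 5.39, and was called under 13 alternatives. Of the 6 genes of this list looked at, Lyz2, Ms4a7 and S100a6 were higher, beside 10.4% over all genes. Ms4a7 and S100a6 passed the 10% limit only through the very high Apoe cells. With all sets pooled S100a6 fell below the comparison cells, of which most then came from set B. Other lists had 1 call each, near the 10.4% over all genes for lists of this size. Of 8 complement genes 1 was higher, Itgb2, the beta chain of complement receptor 3. In the NADPH oxidase list 1 of 5 was higher, Cybb, which encodes the catalytic subunit gp91-phox, at 0.234, 0.134 and 0.188 against 0.149, 0.0702 and 0.0541. Tapbp was the 1 of 8 MHC class I genes that was higher. Cd300lf, an inhibitory receptor that binds phospholipids, was the 1 of 6 phagocytic and scavenger receptors, with 0.144, 0.0780 and 0.0758 against 0.0497, 0.0351 and 0.0108. Klf2, a transcription factor, was the single gene of the immediate early list looked at, and it passed the 10% limit only through the very high Apoe cells (11.1% against 5.15%).

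Several short lists had no call in either direction, which is near what 10.4% higher and 3.81% lower over all genes give for so few genes. These were chemokines (0 of 6), interferon-stimulated genes (0 of 3), the IL-1 family, TNF and inflammasome (0 of 2), antioxidant response (0 of 5), iron storage and transport (0 of 4), Fc receptors (0 of 5), tetraspanins (0 of 5), cystatins (0 of 3) and growth factors (0 of 2). The sets differed for Ccl6, a chemokine of myeloid cells, which had 0.177 against 0.626 in set C, but 0.281 against 0.254 in set A and 0.292 against 0.254 in set F. The glycolysis list had 2 of 10 genes lower, Eno1 and Gapdh, with Gapdh at 1.02, 0.868 and 1.06 against 1.79, 1.78 and 1.31. Its list median was −0.22, −0.97 and 0.08 in sets A, C and F.

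No gene looked at of complex I, which the Nd6 mutation affects, was called, beside 10.4% higher and 3.81% lower over all genes. None of the 22 nuclear subunit genes looked at was called, with a median log2 ratio of 0.03 and set medians of 0.06, −0.51 and 0.31 in sets A, C and F. None of the 10 mitochondrially encoded genes was called (median 0.18). mt-Nd2, a complex I subunit, was higher in all 3 sets at 5.44, 5.12 and 12.2 against 3.68, 3.35 and 8.15, with a median ratio just under the limit. mt-Nd3, another complex I subunit, went the other way in sets A and C. Its means were 0.219 and 0.156 against 0.437 and 0.404 there, and 0.00361 against 0 in set F (median ratio 0.522). mt-Nd6 was above 0 in 7.48% of the very high Apoe cells and 9.89% of the comparison cells, under the share needed to be looked at. Mitochondrially encoded values were higher in set F than in sets A and C in both kinds of cell.

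**Figure D5:**
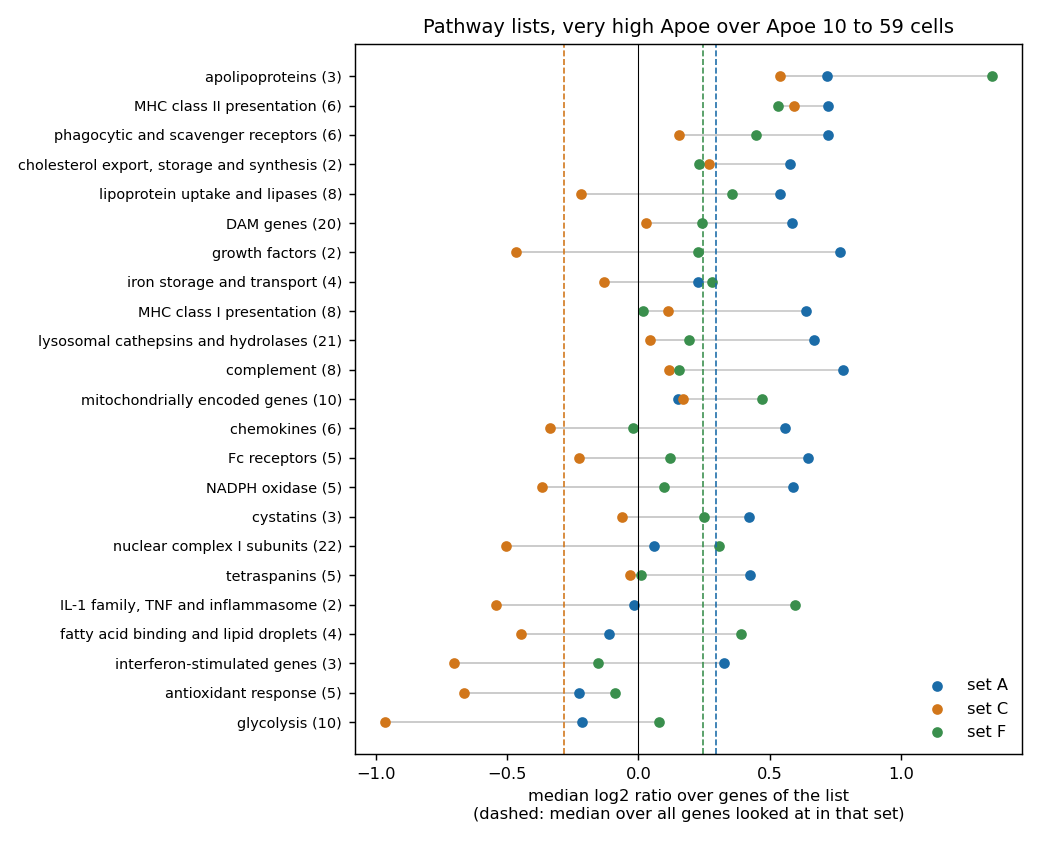
Median log2 ratio of very high Apoe over Apoe 10 to 59 cells (horizontal axis) over the genes of each pathway list with at least 2 genes looked at (vertical axis, number of genes in brackets), with 1 point for each of sets A, C and F; dashed lines give the median over all genes of each set. MHC class II genes lie to the right of these lines in every set. So do apolipoproteins, lipoprotein uptake and lipases, phagocytic and scavenger receptors and, narrowly in set F, cystatins. Glycolysis and antioxidant response lie to the left in every set.

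RNA of several other cell types moved with the comparison. Of 10 endothelial markers 5 could be looked at and 4 were called higher, beside 10.4% over all genes. These were Ly6c1 (0.327, 0.204 and 0.657 against 0.115, 0.0526 and 0.389), Slco1a4, Itm2a and Cldn5. Slco1a4, Itm2a and Cldn5 passed the 10% limit only through the very high Apoe cells. The 10 markers summed to 1.21, 0.714 and 2.18 in the very high Apoe cells of sets A, C and F and to 0.610, 0.392 and 1.32 in the comparison cells, against 23.9 in endothelial-marked cells of set A. Of 12 oligodendrocyte markers 9 were looked at and Mag and Cldn11 were higher, beside 10.4% over all genes. Mag and Cldn11 passed the 10% limit only through the very high Apoe cells. The 12 markers had sums of 17.3, 14.9 and 19.9 against 16.6, 14.4 and 12.9. Immunoglobulin genes, which B lineage cells make, summed to 0.948 in set A against 0.306, and to 0.0760 and 0.123 against 0.0409 and 0.0865 in sets C and F. No gene of the T and NK cell, B cell, astrocyte, pericyte or ependymal lists reached the 10% limit. T and NK markers summed to 0.396, 0.184 and 0.191 against 0.147, 0.0643 and 0.0703, and neutrophil markers to 0.554, 0.132 and 0.794 against 0.393, 0.117 and 0.454. Astrocyte markers summed to 0.505, 0.278 and 0.758 against 0.641, 0.228 and 0.341, and pericyte markers to 0.373, 0.147 and 0.596 against 0.435, 0.105 and 0.303, so both were lower in set A and higher in sets C and F. Ependymal markers summed to 0.127, 0.0484 and 0.0758 against 0.102, 0.0175 and 0.0270, and B cell markers to at most 0.0794 in any set. In all, 1920 of the 4741 very high Apoe cells had 2 or more markers of 1 other cell type above 0. Without such cells 85 genes were higher and 64 lower. The part of this RNA in the calls was not tested.

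Against microglia-marked cells with Apoe of at least 10 (335, 116 and 153 cells in sets A, C and F), 31 of 1256 genes were higher (2.47%) and 85 lower (6.77%). The microglia sum separates these groups, so lower homeostatic genes follow in part from the selection. Apoe was not matched either: its median was 107, 75 and 36 in the microglia-marked cells of sets A, C and F, against 108, 100 and 73. Of 12 homeostatic microglia genes looked at, 8 were lower. Csf1r, the receptor for the survival factor of microglia, had 0.637, 0.599 and 0.722 against 0.857, 1.30 and 1.93, and Selplg, a P-selectin ligand, had 0.233, 0.218 and 0.495 against 0.424, 0.802 and 1.31. Cst3 was at 11.1, 10.2 and 22.1 against 15, 18.3 and 37.9, and Sparc, Gpr34, Olfml3 and Serpine2 were also among the 8. The log2 median of this list was −0.77 beside −0.09 over all genes.

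Among the 20 DAM genes 4 were higher than in microglia-marked cells, beside 2.47% over all genes. These were Spp1 (10.5, 5.94 and 5.96 against 8.96, 3.50 and 3.10), Gpnmb (0.940, 0.599 and 0.484 against 0.884, 0.293 and 0.209), Lgals3, which encodes galectin-3, and Fabp5. Spp1 and Gpnmb differed least in set A, where the Apoe medians of the groups were closest. Ms4a7, a macrophage gene that microglia hardly express, had the highest median ratio, 2.44, at 0.142, 0.128 and 0.108 against 0.137, 0.0259 and 0.0327, so set A showed little difference. Lyz2, Vim and H2-Aa were also higher, as were Hbb-bs and Mbp (12.5, 11.5 and 14.4 against 11.2, 6.38 and 8.07), genes of red blood cells and oligodendrocytes. In set A the ratios of the 12 genes with the highest median ratio lay between 1.03 for Ms4a7 and 1.34 for Ctla2a.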

How the data were processed

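Per the methods, Cell Ranger 7.1.0 mapped reads, introns among them, on GRCm38, and Seurat 4.3.0.1 joined the 6 libraries. The authors deposited 1 table of whole numbers for 18792 genes and 13614 cells. These were treated as a score, not as UMI counts, because the totals per cell lie between 687 and 1578 (median 962), so depth is unknown and no count model was used. How the authors made this score is not given in the sources used here. A count test between genotypes was not made, as the values are not UMI counts and the library and disease state of a set are not shown.

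Means per set and their ratios were calculated in pandas 2.3.3, scipy 1.17.1 and numpy 2.4.6 under Python 3.11.15, and the ratio was tested on simulated data. Doublets were not called. The members, gene lists and comparisons were chosen with earlier results of these data known. Named genes are the 12 highest and 12 lowest called genes, the markers and genes of the definition, up to 4 abundant and 2 most changed genes of each pathway list, and 2 abundant markers of each cell type. Other genes named, among them those shown for spread and for the tail of highest Apoe, were chosen after their values were seen. Genes called higher or lower in a list are named whether or not this rule covers them. Some alternatives, namely cells of 300 to 500 genes and all alternatives for the spread, were chosen after seeing the data. A few genes that this rule names are not reported here.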

Additional observations from a re-analysis of the deposited data

How the results depend on the processing

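The number of very high Apoe cells was 5534 (40.6%) with Apoe of at least 40, 2979 (21.9%) with at least 100, 4668 with the filters stated for the Nd6 data and 2821 (31.9%) without cells that carry 2 or more markers of another type. The 120 genes called higher and 44 called lower became 78 and 81 with values scaled to the total without Apoe (67 and 40 of them called before as well), 60 and 105 scaled to the whole total, 895 and 87 with genes above 0 in 1% of cells, 32 and 23 with 0.1 added to the means, and 187 and 109 with Apoe of at least 100. They became 55 and 76 without set A, 273 and 21 without set C, 138 and 103 without set F, 61 and 164 in the middle of the range of gene numbers in each set, 21 and 84 in cells of 300 to 500 genes, and 32 and 79 in these cells with scaled values. The cause of these shifts was not tested. Both counts stayed within 1.5-fold under the other alternatives, but the genes changed: of 104 and 50 with all sets pooled, 55 and 9 were called before as well, and 6 of the 120 changed sign. Of 91 and 35 with Apoe of at least 40 against 10 to 39, 68 and 25 were called before, of 87 and 49 with the Nd6 filters 77 and 41, and of 85 and 64 without cells with markers of another type 60 and 36. Among named genes the log2 ratio changed sign for Cd300lf (−0.50), S100a6 (−0.56) and Ifi30 (−0.87) with all sets pooled. It did so for Mag without cells with markers of another type (−0.16), in cells of 300 to 500 genes (−0.15) and in these with scaled values (−0.22), and for Cldn5 in the last pair of settings (−0.18 and −0.067). Pcdh9, Apoc1, Gpnmb, Eno1, Actb, Pfn1 and Tmsb10 were called in all 15 alternatives. The median variance over mean in set A was 1.56 in cells of 300 to 500 genes, 1.19 with scaled values and 1.08 without cells with markers of another type.

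No paired analysis was possible because no set can be tied to a library or its replicate number. Depth is unknown for these values, which sets a limit on small differences that cannot be stated.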
